A study of Mus musculus with 8 samples.

Results

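The Bcl3 and Bcl6 loci were examined for binding of tyrosine-phosphorylated STAT3 in mouse embryonic fibroblasts treated with oncostatin M. Their sites were all listed peaks that overlapped a 100 kb window around Bcl3 on chromosome 7 (20350000 to 20450000) or a 200 kb window around Bcl6 on chromosome 16 (23900000 to 24100000). The windows held 8 distinct sites, 6 for Bcl3 and 2 for Bcl6, of 5343 sites with an exact position in all 6 peak lists. Positions are on mm9 and count from 1.

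All groups were STAT3-/- fibroblasts that re-expressed either STAT3α, the full-length factor, or STAT3β, the spliceform without the C-terminal transactivation domain. The constructs were kept under puromycin selection. Every group had 48 h or more of 1 nM 4-hydroxytamoxifen, which switches the construct on, and 16 h without serum. Oncostatin M, an interleukin-6-type cytokine, was then given at 10 ng/mL for 0, 30 or 180 min, and DNA bound by phosphorylated STAT3 was recovered by chromatin immunoprecipitation and sequenced. Each of the 6 combinations of spliceform and time had 1 peak list from merged reads, and each spliceform was represented by 1 cell line. No value below therefore has a replicate error, no test across samples was possible, and spliceform and cell line cannot be told apart. The lists give no peak height and no read number, so the depth is unknown, and a missing site may be one that fell short of the threshold. They held 9, 3725 and 40 peaks for STAT3α and 12, 3891 and 120 peaks for STAT3β at 0, 30 and 180 min.

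Oncostatin M acts through gp130-containing receptors and JAK kinases, which phosphorylate STAT3. The STAT3 dimers enter the nucleus and bind paired half-sites of the form TTCNNNGAA. Bcl3 encodes an atypical IκB protein that works in the nucleus, where it binds NF-κB homodimers and can turn them into activators or stabilise them on DNA. Bcl6 encodes a zinc finger repressor that recruits corepressors such as NCOR1 and BCOR, and the sequence it recognises resembles a STAT site. Both genes are known as STAT3 targets in lymphoid cells.

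The promoter sequences show where such paired half-sites lie near the annotated starts, as context for the bound sites. They are from RefSeq on GRCm38.p6, where both genes are on the minus strand, and run 5′ to 3′ over the 250 bases before each start. Capitals mark each TTCNNNGAA, which is its own reverse complement, so that a search of 1 strand covers both. Bcl6 has a pair of annotated starts, called upstream and downstream here by the direction of transcription.
Bcl3: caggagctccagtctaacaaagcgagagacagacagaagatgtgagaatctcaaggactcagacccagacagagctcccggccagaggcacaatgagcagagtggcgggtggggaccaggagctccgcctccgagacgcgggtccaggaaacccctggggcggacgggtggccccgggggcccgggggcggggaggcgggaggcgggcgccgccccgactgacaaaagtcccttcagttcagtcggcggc
Bcl6 upstream start: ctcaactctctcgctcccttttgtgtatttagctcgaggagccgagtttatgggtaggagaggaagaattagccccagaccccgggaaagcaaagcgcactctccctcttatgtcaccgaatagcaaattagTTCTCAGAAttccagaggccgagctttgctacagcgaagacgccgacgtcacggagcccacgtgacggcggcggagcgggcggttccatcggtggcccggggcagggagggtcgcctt
Bcl6 downstream start: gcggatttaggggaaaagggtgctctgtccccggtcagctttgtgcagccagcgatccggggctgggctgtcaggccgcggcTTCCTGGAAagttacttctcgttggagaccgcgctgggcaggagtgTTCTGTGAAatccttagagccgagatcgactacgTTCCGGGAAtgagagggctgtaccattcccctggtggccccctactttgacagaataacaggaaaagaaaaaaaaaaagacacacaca

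The downstream Bcl6 promoter held 3 matches, TTCCTGGAA at -168 to -160, TTCTGTGAA at -122 to -114 and TTCCGGGAA at -88 to -80, counted from the start. The first and the last also match TTCCNGGAA, a stricter form contained in the first motif. The upstream Bcl6 promoter held 1 match, TTCTCAGAA at -118 to -110, and the Bcl3 promoter held none over the 300 bases that include 50 bases after the start. Of 32851 RefSeq promoters of that length, 8.3% held at least 1 TTCNNNGAA, 150 held at least 2 and 11 (0.0335%) held at least 3. TTCCNGGAA occurred at least once in 377 promoters (1.15%) and at least 2 times in 9. A match is a string of letters and not a bound site. The peak lists are on mm9 and the promoter table is on GRCm38, so which peaks overlie these promoters was not analysed here, and no distance from a site to a start is given.

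**Figure D1:**
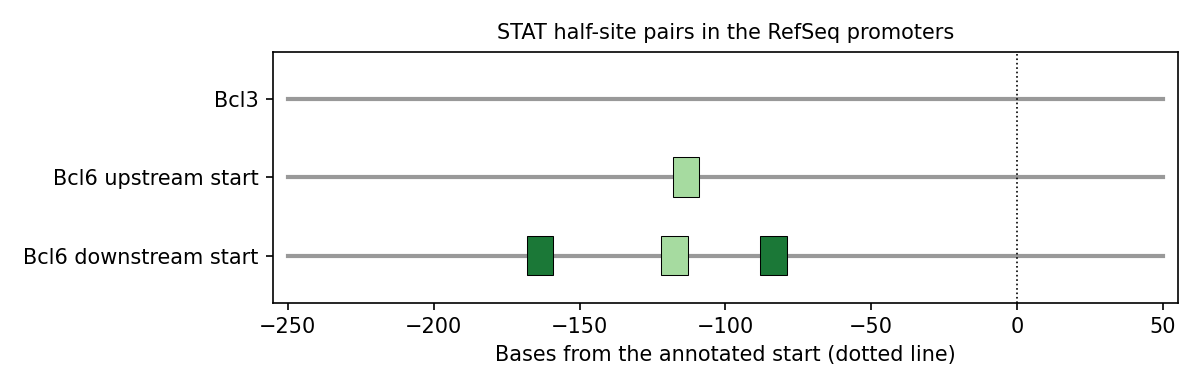
Matches to TTCNNNGAA in the RefSeq promoters of Bcl3 and Bcl6, by distance in bases from each annotated start (dotted line). Dark bars also match TTCCNGGAA. The downstream Bcl6 promoter has 3 matches, the upstream one has 1 and that of Bcl3 has 0.

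The same search was made over 2 lists of related genes. Of 11 genes of the NF-κB and IκB family, to which Bcl3 belongs, 8 had promoters in the table and 2 had a match, Nfkb2, which encodes an NF-κB subunit, and Nfkbid, another nuclear IκB gene. Rela and Rel, which encode NF-κB subunits, and Nfkbia, Nfkbib and Nfkbie, which encode the cytoplasmic IκB proteins, had none. Of 6 genes for BCL6 and its corepressor partners, 4 were in the table and 3 had a match, Bcl6 itself, Bcor and Ncor1, while Bcorl1 had none. Over all genes in the table, 2582 of 27025 (9.55%) had a match in at least 1 promoter. The lists are short and several of their genes have more than 1 promoter, so these counts are a description only.

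The first question was where phosphorylated STAT3 was bound at Bcl3. At 30 min the STAT3α list held 6 sites in the window and the STAT3β list held 3, all of which were also STAT3α sites. Over the whole STAT3β 30 min list, 2278 of 3891 sites were also STAT3α sites. The 6 sites lay within 15.96 kb. In order of position they ran from 20401600 to 20401999, 20402704 to 20403103, 20408004 to 20408403, 20409430 to 20409829, 20412132 to 20412531 and 20417160 to 20417559. Each was 400 bp wide, as were all but 12 of the 30 min sites.

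Sites 1, 2 and 5 of the Bcl3 group were listed for both spliceforms at 30 min. Sites 3, 4 and 6 were listed for STAT3α alone, and none was listed for STAT3β alone. The centres of neighbouring sites were 1104, 5300, 1426, 2702 and 5028 bp apart. The STAT3α-only sites were thus not set apart from the common ones, since site 5 lay between sites 4 and 6. Both-list sites made up 3 of 6 (50%, 95% exact binomial interval 11.8 to 88.2%), beside 42.7% of the 5338 sites of either 30 min list. STAT3α-only sites also made up 3 of 6, beside 27.1% of all sites, a value inside the same interval. STAT3β-only sites made up 0 of 6 (interval 0 to 45.9%), beside 30.2% of all sites, which is inside that interval too. The intervals cover counting over sites only, and neighbouring sites of 1 locus are not independent.

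A single Bcl3 site was listed at 180 min, and it was the same for both spliceforms, at 20401600 to 20401999. This was 1 of 6 STAT3α sites, beside 0.94% of all STAT3α 30 min sites, and 1 of 3 STAT3β sites, beside 3.03% of all STAT3β 30 min sites. It was 1 of only 27 sites in both 180 min lists, which was 1.19% of the 2278 sites of both 30 min lists and 0.506% of the sites of either. Site 2, whose centre was 1104 bp away and which was also in both 30 min lists, was in neither 180 min list. On GRCm38 Bcl3 is transcribed towards lower coordinates, so the site that stayed listed is the farthest along the direction of transcription of the 6. No Bcl3 site was listed at 0 min in either spliceform. Over the sites of either 30 min list, 0.169% were listed at 0 min at an exact position. The 0 min lists held no peak on chromosome 7, at an exact or a rounded position.

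**Figure D2:**
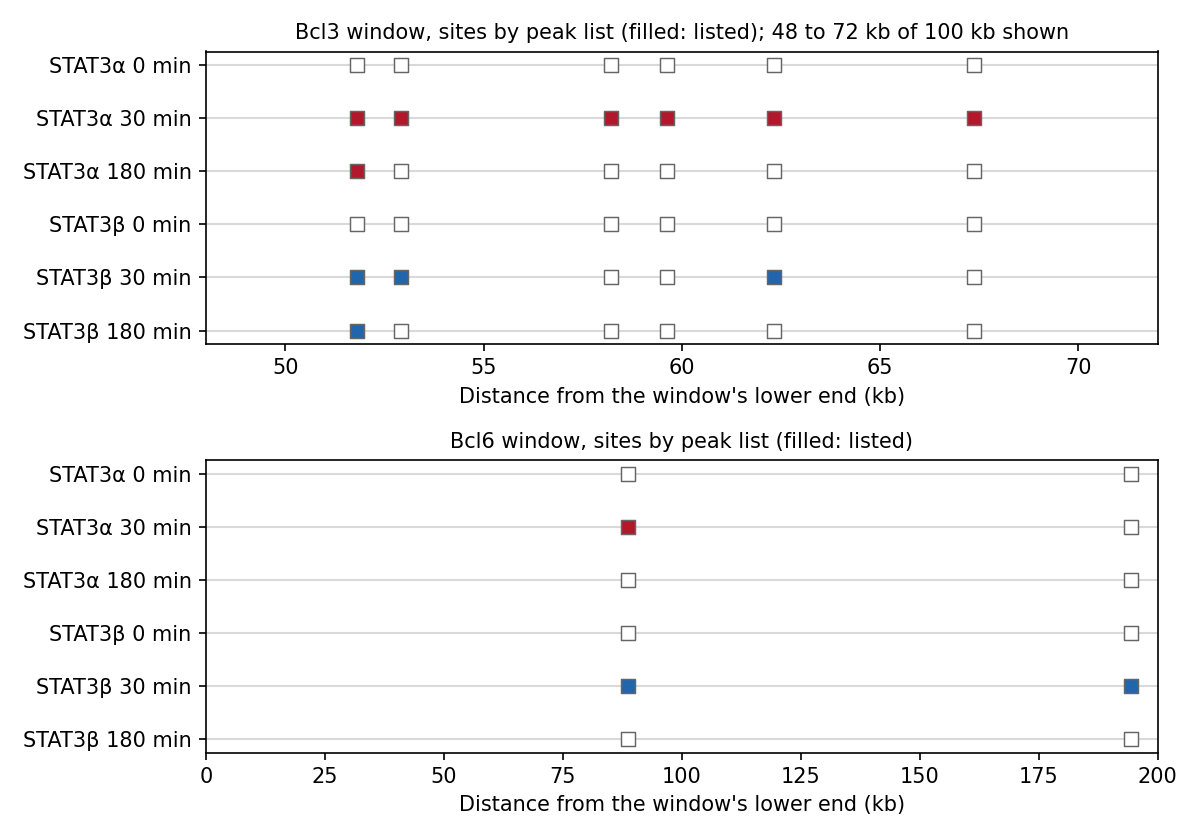
Sites of the Bcl3 (top, the occupied part of the window) and Bcl6 (bottom) windows by peak list, against distance in kb from the window's lower end. Filled squares are listed and open squares are not listed, red for STAT3α and blue for STAT3β. At Bcl3 all 6 sites are listed for STAT3α and 3 for STAT3β at 30 min, and 1 remains in both lists at 180 min.

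The Bcl6 window held fewer sites, farther apart. A site at 23988502 to 23988901 was listed for both spliceforms at 30 min. A second site, at 24094292 to 24094691, was listed for STAT3β alone, and its centre was 105790 bp above the first. On GRCm38 Bcl6 is transcribed towards lower coordinates too, so the STAT3β-only site lies on the upstream side of the common one. Neither was in a 180 min list, which was so for 97.6% of the sites of either 30 min list. Neither was listed at 0 min, and only 0.169% of the sites of either 30 min list were, at an exact position. The 0 min lists held no peak on chromosome 16. STAT3β-only sites made up 30.2% of all 30 min sites, and with 2 sites the Bcl6 share cannot be compared with it. At Bcl6 the STAT3β list was thus the longer one (2 sites against 1), whereas at Bcl3 the STAT3α list was (6 against 3). The Bcl6 count rests on the STAT3β-only site, which ended 5.31 kb inside the window. With the window narrowed by 25% of its length on each side, 1 site was left in each list and the difference was gone. Whether these opposite counts differ beyond the spread between cultures was not tested, since each list stands alone.

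The density of sites at the loci was set beside consecutive windows of the same length along all chromosomes with peaks. A 100 kb window held on average 0.203 sites of either 30 min list, and 14.3% of 26252 windows held any. At least as many as the 6 sites of Bcl3 were found in 16 windows (0.061%), and the fullest held 9. The window with the Bcl3 sites is itself in this count, and in those below for each list alone and for an excess of STAT3α. In the STAT3α list alone, 6 of 26112 windows (0.023%) had 6 or more sites. In the STAT3β list alone, 173 of 26252 windows (0.659%) had 3 or more. STAT3α exceeded STAT3β by 3 or more sites in 17 windows (0.0648%), and STAT3β exceeded STAT3α by as much in another 17. A 200 kb window with at least the 2 sites of Bcl6 was common by comparison, at 1256 of 13129 windows (9.57%). The loci were chosen with these lists known, so these ranks are descriptions without a test.

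**Figure D3:**
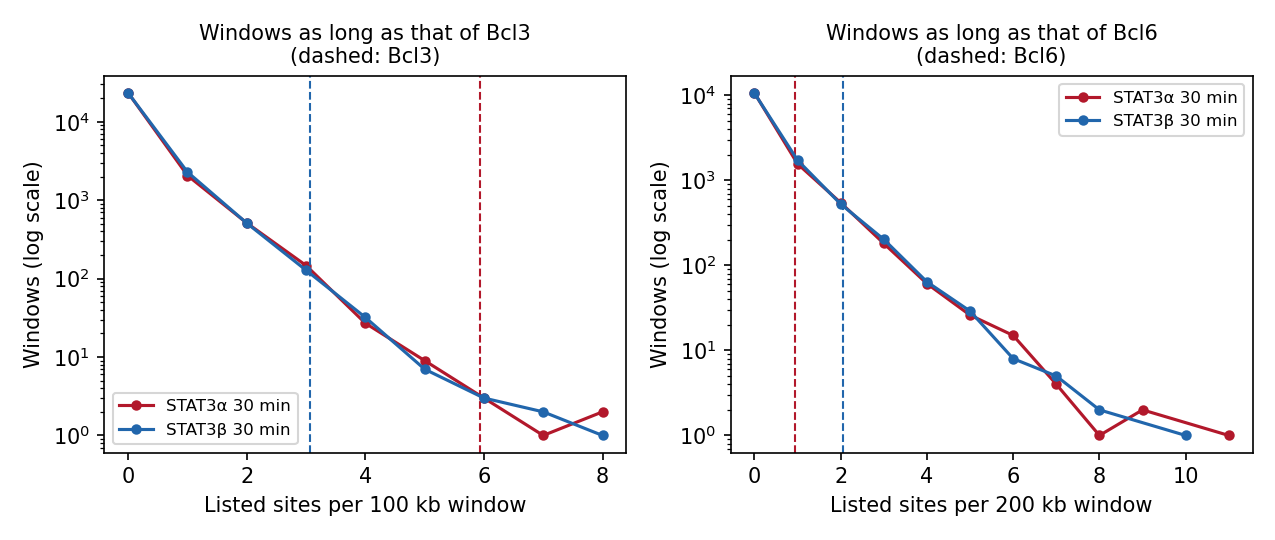
Number of windows (log scale) by the number of listed 30 min sites they hold, for windows of 100 kb (left) and 200 kb (right), in the STAT3α (red) and STAT3β (blue) lists. Dashed lines mark the Bcl3 window (6 STAT3α and 3 STAT3β sites) and the Bcl6 window (1 and 2 sites). Bcl3 lies at the sparse upper end of the STAT3α windows, and Bcl6 lies where windows are plentiful.

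Sites whose neighbouring centres were at most 10 kb apart were then joined into groups. The 5338 sites of the 30 min lists formed 4668 groups, and 77% of sites were alone. Bcl3 formed 1 group of 6, and no group was larger. Only 2 other groups had 6 sites. The chromosome 2 group ran from 125748756 to 125767102, and the chromosome 15 group from 76020237 to 76038042. All 3 had 3 sites in both lists. The single-list sites of the chromosome 2 group were all of STAT3β (3 sites), and those of the chromosome 15 group were 1 of STAT3α and 2 of STAT3β. At this gap 1 group of any size, that of Bcl3, had 3 or more STAT3α-only sites and no STAT3β-only site, and 4 groups had the opposite composition. At a gap of 5 kb no Bcl3 group had more than 2 STAT3α-only sites, and 0 groups in all had that composition. At 20 kb 10 groups had it, Bcl3 among them, and 9 had the opposite one. The chromosome 2 group had no site in a 180 min list, and the chromosome 15 group had 1 in the STAT3β list. Over the sites of either 30 min list, 97.6% were in neither 180 min list, so these counts do not set the groups apart. Of the 27 sites in both 180 min lists, 19 were alone and 8 lay in groups of 2 or more sites, beside 77% of all 30 min sites alone. With a gap of 5 kb the Bcl3 sites fell into 3 groups, the largest of 3 sites, and 31 of 4922 groups were as large or larger. With 20 kb they stayed 1 group of 6 sites, and 8 of 4292 groups were as large or larger, up to 12 sites.

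**Figure D4:**
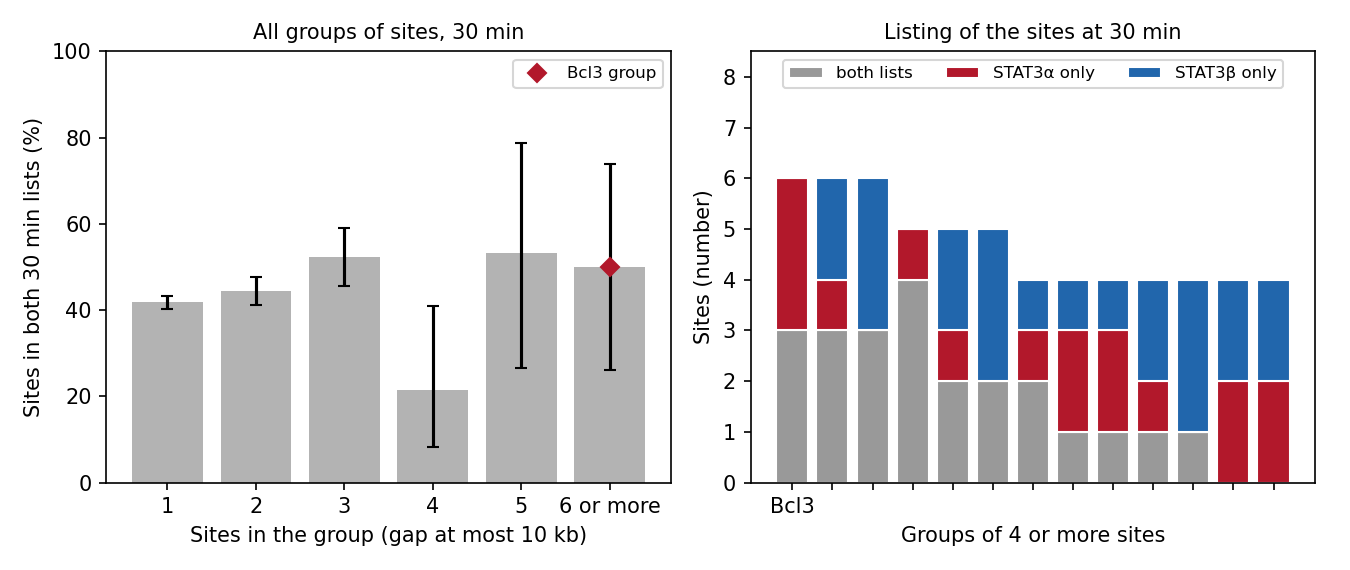
Left, percent of sites in both 30 min lists by the number of sites in their group, with 95% exact binomial intervals, and the Bcl3 group as a diamond at 50%. The intervals cover counting over sites only, although neighbouring sites are not independent. The Bcl3 sites are themselves part of the last bar, so the diamond and that bar are not separate. Right, number of sites listed for both spliceforms (grey), STAT3α only (red) or STAT3β only (blue) in each of the 13 groups of 4 or more sites. The Bcl3 group has 3 STAT3α-only sites, and no other of these groups has more than 2.

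Around the windows, only the nearest site on each side was located, and the sites farther out were not counted. The nearest site below the Bcl3 window was a STAT3β-only site at 20214725 to 20215124, 187 kb from the lowest Bcl3 site. The nearest above it was a STAT3α-only site at 25172120 to 25172519, 4.76 Mb from the highest one. Gaps at least that long made up 68 of 5318 gaps between neighbouring sites (1.28%), and the median gap was 122 kb. Around the Bcl6 window the nearest sites were a STAT3β-only one at 23609796 to 23610195, 379 kb below the common site, and a STAT3α-only one at 24284306 to 24284705, 190 kb above the STAT3β-only site. None of these 4 was in a 180 min list, which was so for 97.6% of the sites of either 30 min list. Within the loci, the distance to the nearest 30 min site was 1.10 to 5.03 kb at Bcl3 and 106 kb at both Bcl6 sites, beside a median of 46.2 kb over all sites. In the GRCm38 gene order Bcl3 lies between the named coding genes Cblc and Ceacam16, and Bcl6 between Rtp2 and Lpp. The lists do not tell which of these genes a site acts on.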

How the data were processed

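The deposited peak lists give the mm9 start, end and name of each peak, and hold no score. Per the labels, duplicates were prepared and reads merged. Named in the submitters' processing notes are MACS2 2.1.1.20160309, HOMER 4.9, bedtools, STAR 2.5.0a and Trim Galore 0.4.2. No source used here gives what each tool did, the threshold or any control. The 2 input samples were not used here. In the 0 min lists, positions from 100 Mb upward were deposited with 3 digits only (6 peaks, none on chromosomes 7 or 16).

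A peak belonged to a locus when it overlapped its window by 1 bp or more, and lists were matched by an overlap of 1 bp. Overlapping peaks of different lists were identical. Every member is named, with the nearest sites outside. The comparison groups follow the sample titles. Windows ran to the last listed position of each chromosome. No annotation of mm9 was used. Promoters were matched by symbol (Bcl3 with 1 start, Bcl6 with 2), and their orientation was checked by the position of TATAAA. Of the planned lists of related genes, 1 gene is not reported here. The counting functions were tested on simulated data. Members, windows and lists were chosen with earlier results of these data known. The comparisons of group size, of an excess of 1 spliceform and of empty stretches were added after the sites were seen. Calculations used Python 3.11.15, numpy 2.4.6, scipy 1.17.1 and matplotlib 3.10.9.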

Additional observations from a re-analysis of the deposited data

How the results depend on the processing

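Of 40 alternative values for 16 results, 35 were within 1.5 times the reported count or within its interval. Counting peaks by their centre or as a whole and matching lists by centres within 1000 bp changed no count at either locus. They could not, because no site crossed a window edge and neighbouring centres were at least 1104 bp apart. These settings therefore say nothing about stability either. Matching by identical coordinates or by 50% of the width and using rounded 0 min positions (14 of the 35) could change nothing, because overlapping peaks were identical and no rounded peak lay on these chromosomes, so these say nothing about stability. The other 5 moved. Narrowing the window by 25% of its length on each side left 1 Bcl6 site, the common one. A gap of 5 kb gave 3 groups at Bcl3. Over windows with at least 1 site only, 0.427% had as many sites as Bcl3 or more and 40.04% as many as Bcl6 or more, because empty windows left the denominator. TTCCNGGAA had 2 matches in the Bcl6 promoters against 4 for TTCNNNGAA. The motif could not be sought in the sites themselves, since no genome of mm9 was used. No paired analysis was possible because each group has 1 merged list and no comparison rests on a test. The unknown depth limits every absence from a list.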
